A study of Mus musculus with 4 samples.

Results

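The 10 genes described here, Cdkn1a, Cdkn1b, Cdkn2a, Cdkn2b, Cdkn2c, Trp53, Mdm2, Gadd45a, Ccng1 and Bax, are genes of inhibitors of the cyclin-dependent kinases, the gene of the p53 protein, and well-known p53 target genes. They were found by gene symbol in the deposited mRNA-seq values of tibialis anterior (TA) muscle, which lifts the foot, and all 10 had 1 row each among 20340 gene labels with a value in all 4 samples. The muscles came from wild-type C57BL/6 mice aged 3 months (Young, 2 samples, named Young 1 and Young 2) or 20 months (Old, 2 samples, named Old 1 and Old 2), and the labels name no engineered allele or agent for either group. The study used aged mice as its model of muscle loss, and its methods state that the sex of the mice was chosen at random. Triplicates are mentioned in the design text, while the labels list 2 samples per age and do not say that they came from separate mice. A figure legend of the study gives 2 independent mRNA-seq experiments per sample as the basis of its statistics. It does not name separate mice either. The p-values rest on the spread between these samples only, pooled over genes in the main test.

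The Cip/Kip proteins p21 (Cdkn1a) and p27 (Cdkn1b) bind and hold back cyclin-CDK complexes, and the INK4 proteins p16 (Cdkn2a), p15 (Cdkn2b) and p18 (Cdkn2c) block Cdk4 and Cdk6. The Cdkn2a gene also encodes Arf, which restrains Mdm2, the ubiquitin ligase that keeps p53 (Trp53) low. Active p53 turns on Cdkn1a, Mdm2, Gadd45a, Ccng1 and Bax. The nuclei of adult muscle fibers no longer divide, and Cdkn1a and Cdkn2a are widely used as markers of senescent cells in aged tissues.

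Since several members are known p53 targets, the DNA before their transcription starts was read for the p53 motif. RefSeq (GRCm38.p6) gives 13 transcription starts for the 10 genes. In the 250 bases before each start, the p53 half-site, the 10-base motif that pairs of p53 molecules recognise, was searched (the motif equals its own reverse complement, so both strands are covered). It was present before a start of 6 genes, namely Cdkn1a, Trp53, Mdm2, Gadd45a, Ccng1 and Bax, and was not in these windows of the 4 remaining inhibitors. A half-site was in 6 of the 13 windows of the members, against 7.13% of 32851 such windows in the mouse RefSeq table. A full site, meaning 2 half-sites 0 to 13 bases apart, was found before the upstream start of Cdkn1a and in 0.0639% of all windows. This window lies at chr17:29090729-29090978 on the plus strand and is shown because Cdkn1a was the member that differed most downward between ages, with the half-sites in capitals and the start just after the last base. Only exact matches were searched. Near-matches with a mismatch stay in lower case, such as tgacatgttc directly after the second half-site.
Cdkn1a, upstream start: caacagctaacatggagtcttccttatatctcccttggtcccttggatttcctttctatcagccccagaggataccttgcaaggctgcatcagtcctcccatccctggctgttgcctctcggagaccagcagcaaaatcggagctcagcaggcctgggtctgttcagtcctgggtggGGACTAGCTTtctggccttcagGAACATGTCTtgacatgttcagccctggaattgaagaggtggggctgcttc

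The half-sites of the other 5 genes are shown with 25 bases on each side, in the direction of transcription, so that they can be compared. They lie at chr11:69580259-69580318 on the plus strand for Trp53, and on the minus strand at chr10:117710910-117710969 for Mdm2, chr6:67037413-67037472 for Gadd45a, chr11:40755437-40755496 for Ccng1 and chr7:45467065-45467124 for Bax.
Trp53: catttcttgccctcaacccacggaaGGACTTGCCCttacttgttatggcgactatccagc
Mdm2: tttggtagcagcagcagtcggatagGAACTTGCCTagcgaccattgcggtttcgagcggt
Gadd45a: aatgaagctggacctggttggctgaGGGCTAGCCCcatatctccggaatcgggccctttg
Ccng1: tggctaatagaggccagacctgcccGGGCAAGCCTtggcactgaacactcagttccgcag
Bax: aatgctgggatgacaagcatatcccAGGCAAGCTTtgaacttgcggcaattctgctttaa

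The GC box (GGGCGG on either strand) was found before a start of 7 of the 10 genes. GC boxes were in 7 of the 13 windows of the members and in 32.7% of all windows. Among the members, the window with the most of them belongs to the upstream start of Cdkn2c, at chr4:109666757-109667006 on the minus strand, shown because Cdkn2c was the member that differed most upward between ages, with the 3 GC boxes in capitals. The FoxO motif GTAAACA, searched on both strands, was found before 1 member, Mdm2, and in 3.17% of all windows. A match is a description of the letters and not a measured binding site.
Cdkn2c, upstream start: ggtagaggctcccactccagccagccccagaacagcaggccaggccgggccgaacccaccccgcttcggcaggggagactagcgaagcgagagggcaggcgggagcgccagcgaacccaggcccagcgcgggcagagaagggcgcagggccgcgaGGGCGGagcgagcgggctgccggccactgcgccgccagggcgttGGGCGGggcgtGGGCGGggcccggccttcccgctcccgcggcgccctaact

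Expression is given as FPKM (sequenced fragments per kilobase of transcript, relative to all mapped fragments), so levels can be compared between genes. The read depth is unknown, because the values carry no counts. Samples of equal age lay on different scales: over the 10266 tested genes (at least 1 FPKM in at least 2 samples), Old 1 stood above Old 2 by a median ratio of 2.17 and Young 2 above Young 1 by 2.13. For 7 of the 9 tested members the step was close to this, for example 2.03 in Old and 2.09 in Young for Cdkn1a and 1.92 and 1.90 for Mdm2. It was larger for the least abundant tested members, at 2.82 and 3.44 for Cdkn2c and 5.76 and 5.16 for Cdkn2b. Over all loci with a value in each sample, the summed FPKM was 698130 in Old 1 and 226747 in Old 2. It was 739302 in Young 2 and 251294 in Young 1. These steps exceed the median ratios, so a single factor does not put all genes of a sample on one scale. Old 1 and Young 2 were on nearly the same scale (median ratio 0.990), as were Old 2 and Young 1 (median ratio 0.985). For genes at 10 to 30 FPKM, log2 ratios scattered with a robust SD of 0.07 within each age and 0.40 in both of these pairs. The samples of an age may thus be 1 library, and each age would then have n = 1. The study, however, calls its 2 mRNA-seq experiments independent. Each sample's value is therefore given, and Old is compared with Young mainly within these 2 crossed pairs, which were picked with the values in view and are not given by the labels.

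**Figure D1:**
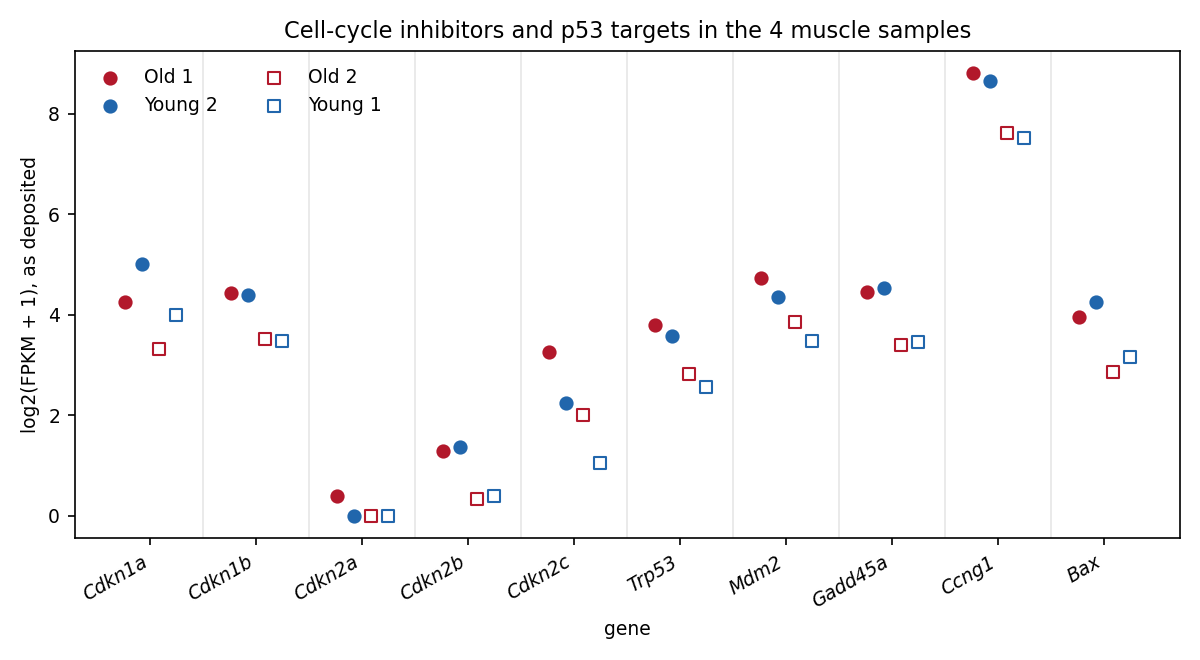
Each point is 1 sample's level of 1 gene on the log2(FPKM + 1) scale, as deposited; filled circles are Old 1 and Young 2, open squares are Old 2 and Young 1, red is Old and blue is Young. The 2 samples of an age lie apart by about the same step for most genes, Cdkn1a is lower and Cdkn2c is higher in Old within each shape, and Cdkn2a is at or near 0.

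Of the Cip/Kip genes, Cdkn1a was lower in old muscles, while Cdkn1b hardly differed. Cdkn1a (chromosome 17, 29090986 to 29100722, mm10 locus) measured 18.1 (Old 1), 8.95 (Old 2), 14.9 (Young 1) and 31.2 FPKM (Young 2). Within each crossed pair the old sample was the lower one, although the groups overlapped as deposited, since Old 1 lay above Young 1. The old sample was 1.72-fold lower in the pair of Old 1 and Young 2, and 1.66-fold lower in the pair of Old 2 and Young 1. The log2 fold change on the log2(FPKM + 1) scale was -0.71 (standard error 0.93). In limma its Benjamini-Hochberg adjusted p over all tested genes was 1.00. When each sample was scaled to the same median over the tested genes, Cdkn1a was 11.4 and 14.2 in Old against 23.5 and 19.8 in Young, with no overlap. The log2 fold change was then -0.72 (standard error 0.20, adjusted p = 0.255 from limma). On that scale 473 of the 10266 genes (4.61%) were at least as far below 0. The exact two-sided permutation p was 0.667 for the values as deposited, as for each tested member, and 2 samples against 2 allow no p under 0.333.

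Cdkn1b (chromosome 6, 134920401 to 134925525) measured 20.7 (Old 1), 10.5 (Old 2), 10.2 (Young 1) and 20.1 FPKM (Young 2). Its ratio was 1.03 in both crossed pairs. The median-scaled log2 fold change was 0.04 (standard error 0.22), which leaves room for differences of either sign. A ratio of genes within 1 sample does not depend on the scale of that sample. The ratio of Cdkn1a to Cdkn1b was 0.876 in Old 1 and 0.853 in Old 2, against 1.46 in Young 1 and 1.55 in Young 2. Thus, of these genes, Cdkn1a was the more abundant in both young samples and Cdkn1b in both old ones. The inhibitor genes Cdkn1c and Cdkn2d did not have a value in each of the 4 samples and could not be ranked.

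Of the INK4 genes, Cdkn2c was higher in old muscles and Cdkn2b and Cdkn2a had the lowest values of the members. Cdkn2c (chromosome 4, 109660876 to 109666782) measured 8.52 (Old 1), 3.02 (Old 2), 1.08 (Young 1) and 3.71 FPKM (Young 2). The old sample exceeded the young one 2.29-fold in the first crossed pair and 2.80-fold in the second. The log2 fold change was 0.98 as deposited (standard error 1.00, adjusted p = 1.00 from limma). With median scaling the values were 5.35 and 4.80 in Old against 1.70 and 2.36 in Young, and the groups did not overlap. The log2 fold change was 1.01 on that scale (standard error 0.15, adjusted p = 0.135 from limma), and 125 of the tested genes (1.22%) were at least as far above 0. After median scaling, Cdkn2c passed the threshold of 0.05 when Old 1 was left out (limma adjusted p = 0.00487, log2 fold change 0.94), Old 2 (0.00868, log2 fold change 1.08) or Young 2 (4.33e-05, log2 fold change 1.17), but not Young 1 (0.0566, log2 fold change 0.85). These fits called 1.82%, 3.84%, 3.65% and 1.11% of all tested genes higher, in that order, against 0.117% with all 4 samples, so the gain in calls was general. In these fits the lone sample of an age is assumed to vary like the others, and they were chosen after the values were seen.

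Cdkn2b (chromosome 4, 89306289 to 89311032) measured 1.46 (Old 1), 0.253 (Old 2), 0.310 (Young 1) and 1.60 FPKM (Young 2). The step between samples of an age was far larger than the ratios of 0.912 and 0.817 between ages in the crossed pairs. Cdkn2a (chromosome 4, 89274473 to 89294619) was listed at 0 in Old 2, Young 1 and Young 2 and at 0.312 FPKM in Old 1. It was below the minimum of 1 FPKM and was the 1 member of 10 that was not tested, and the deposited value does not separate the p16 and Arf transcripts. A listed 0 need not mean low expression in these files, since Ckm, the creatine kinase gene of muscle fibers, is also listed at 0 in all 4 samples, so no statement on Cdkn2a between ages is made.

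Added together, the 5 inhibitor genes were composed differently at the 2 ages. Cdkn1a made up 56.2% of their summed FPKM in Young 1 and 55.0% in Young 2, against 36.9% in Old 1 and 39.4% in Old 2. The share of Cdkn2c was 4.08% and 6.56% in Young 1 and Young 2, and 17.3% and 13.3% in Old 1 and Old 2. Cdkn1b held 38.5% and 35.6% in the young samples and 42.1% and 46.2% in the old ones. For these 3 genes the shares of the old and young samples did not overlap. Such a split is common here, since after median scaling the levels of 44.3% of all tested genes did not overlap. How often it occurs for shares within other gene sets was not computed. Since the shares sum to the whole, a lower share of one gene raises the others, and no test was run on them.

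**Figure D2:**
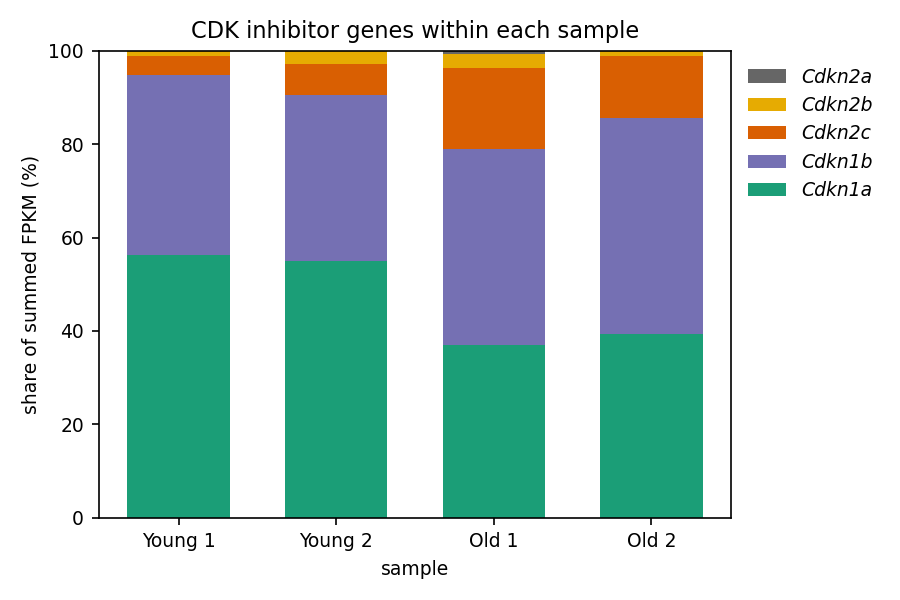
Each bar is 1 sample and is divided into the percentage of the summed FPKM of the 5 CDK inhibitor genes held by each gene, with the vertical axis from 0 to 100%. The Cdkn1a part is larger in both young samples (56.2% and 55.0%) than in both old samples (36.9% and 39.4%), and the Cdkn2c part is larger in the old samples.

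Trp53 and Mdm2 were both slightly higher in old muscles. Trp53 (chromosome 11, 69580359 to 69591873) measured 12.9 (Old 1), 6.08 (Old 2), 4.87 (Young 1) and 10.9 FPKM (Young 2), a ratio of 1.19 and 1.25 in the crossed pairs. Mdm2 (chromosome 10, 117688905 to 117710716) measured 25.7 (Old 1), 13.4 (Old 2), 10.2 (Young 1) and 19.4 FPKM (Young 2), a ratio of 1.33 and 1.31. With median scaling Trp53 was 8.11 and 9.66 in Old against 7.69 and 6.91 in Young. Mdm2 was 16.14 and 21.3 in Old against 16.11 and 12.3 in Young, so its groups were barely apart. The scaled log2 fold changes were 0.25 for Trp53 (standard error 0.15, adjusted p = 0.509 from limma) and 0.37 for Mdm2 (standard error 0.24, adjusted p = 0.544 from limma). The differences were small beside the spread of genes between ages, since 12.5% of the tested genes were at least as far above 0 as Mdm2 and 20.9% as Trp53. The ratio of Mdm2 to Trp53 within a sample lay between 1.78 and 2.21, and the ages overlapped. For Cdkn1a the ratio to Trp53 was 1.40 and 1.47 in Old and 3.05 and 2.87 in Young, without overlap. The same held for Bax (1.12 and 1.03 in Old, 1.64 and 1.66 in Young) and Gadd45a (1.62 and 1.57 in Old, 2.06 and 2.04 in Young). It also held for Ccng1 (34.7 and 32.1 in Old, 37.3 and 37.1 in Young), so a lower ratio to Trp53 was not particular to Cdkn1a. The share of all tested genes with such a ratio was not computed.

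The remaining p53 targets did not share one direction. Ccng1, which encodes cyclin G1, was the most abundant member in each sample and stood above 97.8% to 98.1% of the tested genes. It (chromosome 11, 40748552 to 40755286) measured 448 (Old 1), 195 (Old 2), 182 (Young 1) and 403 FPKM (Young 2), with ratios of 1.11 and 1.07 in the crossed pairs. With median scaling the 2 ages overlapped, at 281 and 310 in Old and 287 and 256 in Young.

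Gadd45a, whose product binds PCNA and acts in growth arrest and DNA repair, measured 20.9 (Old 1), 9.53 (Old 2), 10.02 (Young 1) and 22.1 FPKM (Young 2). Its ratios were 0.946 and 0.9505, and the scaled values overlapped. The deposited locus of Gadd45a (chromosome 6, 67035096 to 67080652) runs past the RefSeq gene, which ends at 67037407, and has the same bounds as that of E230016M11Rik, a noncoding gene that overlaps it in RefSeq and measured 4.24 (Old 1), 0.346 (Old 2), 0.295 (Young 1) and 6.38 FPKM (Young 2). The genes lie on opposite strands in GENCODE and the library kit was stranded, but whether strand was used in the quantification is not given in the sources used here, so the value of Gadd45a is uncertain to that extent.

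Bax, which opens the outer mitochondrial membrane in apoptosis, was lower in old muscles. It (chromosome 7, 45461695 to 45466898) measured 14.4 (Old 1), 6.24 (Old 2), 7.999 (Young 1) and 18.1 FPKM (Young 2), which is 1.25-fold and 1.28-fold lower in the old sample of the crossed pairs. With median scaling Bax was 9.07 and 9.91 in Old against 12.6 and 11.5 in Young, without overlap. The log2 fold change was -0.31 as deposited (standard error 0.95, adjusted p = 1.00 from limma) and -0.31 with median scaling (standard error 0.14, adjusted p = 0.404 from limma). Relative to Mdm2 in the same sample, Bax was at 0.562 and 0.465 in Old and 0.784 and 0.932 in Young. Hence the 5 targets ran from Cdkn1a and Bax on the lower side, through Gadd45a and Ccng1, to Mdm2 on the higher side.

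**Figure D3:**
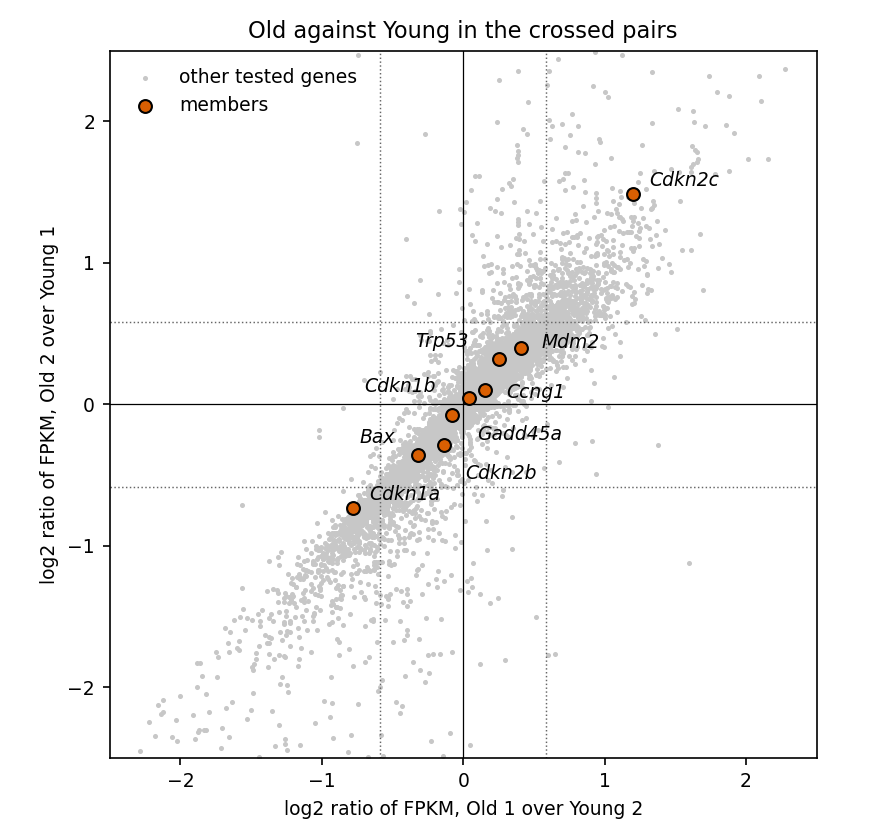
Each point is 1 gene, with the log2 ratio of FPKM of Old 1 to Young 2 on the horizontal axis and of Old 2 to Young 1 on the vertical axis; orange points are the 9 tested members, grey points are the other tested genes above 0 in all 4 samples, and dotted lines mark a 1.5-fold difference. Cdkn1a lies beyond 1.5-fold lower and Cdkn2c beyond 1.5-fold higher in both pairs, with the other 7 between, and 110 of 9293 genes lie outside the plotted range of 2.5 on either axis.

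The main test called no member. In limma on the values as deposited, 0 of the 9 tested members were higher and 0 lower in Old at an adjusted p under 0.05, and 0 were at an unadjusted p under 0.05. Over all tested genes 0.175% were called higher (18) and 0.127% lower (13). The count of members stayed at 0 in both directions with median scaling (0.117% of all tested genes higher and 0.127% lower), with quantile normalization (1.16% and 1.83%), with median-ratio scaling (0.594% and 0.731%) and with log2 values shifted to one median (0.731% and 1.26%). With quantile normalization the adjusted p from limma was 0.0509 for Cdkn1a and 0.069 for Cdkn2c. The standard errors as deposited, from 0.93 to 1.07 for the members, are about as large as the step between samples of equal age. That fit had 20532 degrees of freedom, so its standard errors and p-values come from a spread pooled over all tested genes. They do not measure the own spread of a member or of a called gene between samples. Entering the crossed pairs as a block, chosen after the values were seen, called 4 of 9 members higher (27.4% of all tested genes) and 3 lower (32.9%). If the samples of an age are 1 library, the spread between them is technical and those calls compare 2 libraries.

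By size in the crossed pairs, 1 member, Cdkn2c, was at least 1.5-fold higher in both, against 6.70% of all tested genes, and 1 member, Cdkn1a, was at least 1.5-fold lower in both, against 9.28%. All 9 members differed in the same direction in both pairs (5 higher and 4 lower), as did 87.5% of all tested genes. As deposited, 0 members had groups that did not overlap, against 1.61% of all tested genes on the higher and 1.93% on the lower side. After median scaling the groups did not overlap for 5 of 9 members, against 44.3% of all tested genes. Cdkn2c, Trp53 and Mdm2 were on the higher side (20.4% of all genes) and Cdkn1a and Bax on the lower side (23.8%). The share of members is thus near that of all genes. The median log2 fold change was 0.04 over the 9 members and -0.01 over all tested genes as deposited.

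Other genes of the pathway were read from lists chosen with earlier results of these data known. Of 16 genes with a value among 20 regulators of p53, 15 were tested, and 12 were higher and 3 lower in both crossed pairs. Of all tested genes 42.3% were higher and 45.2% lower, and the counts of the later lists are to be read beside these shares. The regulators Chek1, Atm, Atr and Pml had no value in all 4 samples, and the deposited values end on chromosome 7 or 8. Over the 9 pathway and context lists 97 different genes were tested, and limma called 1 of them, Ddit4, as deposited and with median scaling, while 2 and 24 were at an unadjusted p under 0.05. Trp63, which encodes a p53 relative, measured 9.95 (Old 1), 4.49 (Old 2), 1.26 (Young 1) and 3.24 FPKM (Young 2). Its ratios of 3.07 and 3.55 were the largest of the list. Daxx, a corepressor that interacts with Mdm2, was 1.70-fold and 1.65-fold higher, and Kat5, an acetyltransferase that acts on p53, 1.45-fold and 1.48-fold.

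Of 19 listed p53 targets in arrest and DNA repair, all had a value, and of the 16 tested 10 were higher and 5 lower in both crossed pairs. The relatives of Gadd45a differed in opposite directions. Gadd45g measured 32.8 (Old 1), 16.2 (Old 2), 67.6 (Young 1) and 132 FPKM (Young 2), a ratio of 0.249 and 0.240. Gadd45b measured 36.8 (Old 1), 18.7 (Old 2), 11.6 (Young 1) and 23.8 FPKM (Young 2), a ratio of 1.55 and 1.61. Plk2, a polo-like kinase induced by p53, had ratios of 2.27 and 2.503.

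Targets in apoptosis and in metabolism were read separately, beside 42.3% higher and 45.2% lower in both crossed pairs over all tested genes. Of 10 tested apoptosis targets (15 of 18 had a value), 7 were lower and 3 higher in both crossed pairs. The death receptor gene Fas had ratios of 0.647 and 0.502, Trp53inp1, a p53 cofactor, 0.620 and 0.611, and the TNF receptor gene Tnfrsf1a 0.664 and 0.642. Of 14 tested targets in metabolism and stress (16 of 18 had a value), 11 were lower and 3 higher in both pairs, and 1, Ddit4, passed limma as deposited (adjusted p = 0.0463) and with median scaling (adjusted p = 0.0365). The call was lost in 8 of 21 alternatives, including no filter on low values (limma adjusted p = 1.00), a minimum of 1 FPKM in each sample (0.0699) and leaving out any 1 sample as deposited. Its adjusted p from limma thus depended on the setting. Ddit4, an inhibitor of mTORC1 that also answers to glucocorticoids and low oxygen, measured 6.93 (Old 1), 2.85 (Old 2), 44.6 (Young 1) and 92.5 FPKM (Young 2). Hbegf, a growth factor gene, had ratios of 0.299 and 0.263. Tigar, which lowers glycolytic flux, was 1.70-fold and 1.66-fold higher.

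The list of cyclins, cyclin-dependent kinases and E2F factors, on which the inhibitors act directly or further down, had a value for 12 of 14 genes. Of the 7 tested, 5 were lower and 1 was higher in both crossed pairs, the last being Ccne2, listed at 0 in Young 1. Cdk4, the kinase that the INK4 proteins bind, measured 17.9 (Old 1), 8.63 (Old 2), 9.85 (Young 1) and 20.4 FPKM (Young 2), with ratios of 0.878 and 0.877, while Cdk6 was below 1 FPKM in each sample. Ccnd3, the D-type cyclin of differentiated muscle, measured 7.73 (Old 1), 1.63 (Old 2), 4.58 (Young 1) and 16.1 FPKM (Young 2). Its ratios were 0.480 and 0.355, those of Ccnd2 0.720 and 0.686, and those of Cdk2 0.799 and 0.773. Of 8 proliferation markers, 5 had a value and 0 reached the minimum for testing, and their summed FPKM was 1.14 and 0.08 in Old 1 and Old 2 and 0.07 and 1.10 in Young 1 and Young 2. Among other inhibitors and pocket proteins, 9 of 12 had a value and 8 were tested. In both pairs 4 were higher and 3 lower. The retinoblastoma gene Rb1 was 1.36-fold and 1.38-fold higher, while the antiproliferative gene Tob2 had ratios of 0.604 and 0.608 and the factor gene Klf4 0.654 and 0.592.

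In the Bcl2 family, to which Bax belongs, 12 of 14 genes had a value and 9 were tested, of which 4 were higher and 5 lower in both pairs. Bcl2l1, the gene of the survival protein Bcl-xL, measured 5.14 (Old 1), 2.22 (Old 2), 9.17 (Young 1) and 18.1 FPKM (Young 2), a ratio of 0.284 and 0.242. Mcl1, another survival gene, had ratios of 0.713 and 0.719. Bnip3l, which acts in mitophagy, was 1.78-fold and 1.79-fold higher. Bcl2l1 thus differed in the direction of Bax and by more.

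Of 20 secreted and nuclear markers used for senescent cells, 15 had a value and 7 were tested, with 5 higher and 2 lower in both crossed pairs. The cytokine genes Il6, Cxcl1, Tnf and Il1b were listed at 0 in Old 2 and Young 1 and below 1 FPKM in Old 1 and Young 2. Igfbp5, an IGF binding protein gene, measured 152 (Old 1), 70.2 (Old 2), 22.4 (Young 1) and 41.3 FPKM (Young 2), a ratio of 3.67 and 3.13. Hmgb1 was 1.82-fold and 1.58-fold higher, and Igfbp7 had ratios of 0.731 and 0.661. Since Gadd45a and Cdkn1a also answer to denervation in muscle, a list of denervation and ATF4 genes was read as well. Of 15 genes with a value (of 16), 12 were tested, and 5 were higher and 6 lower in both pairs. Hdac4 was 1.99-fold and 1.98-fold higher, and the receptor gene Chrne 1.29-fold and 1.35-fold. Ankrd1 had ratios of 0.728 and 0.547.

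**Figure D4:**
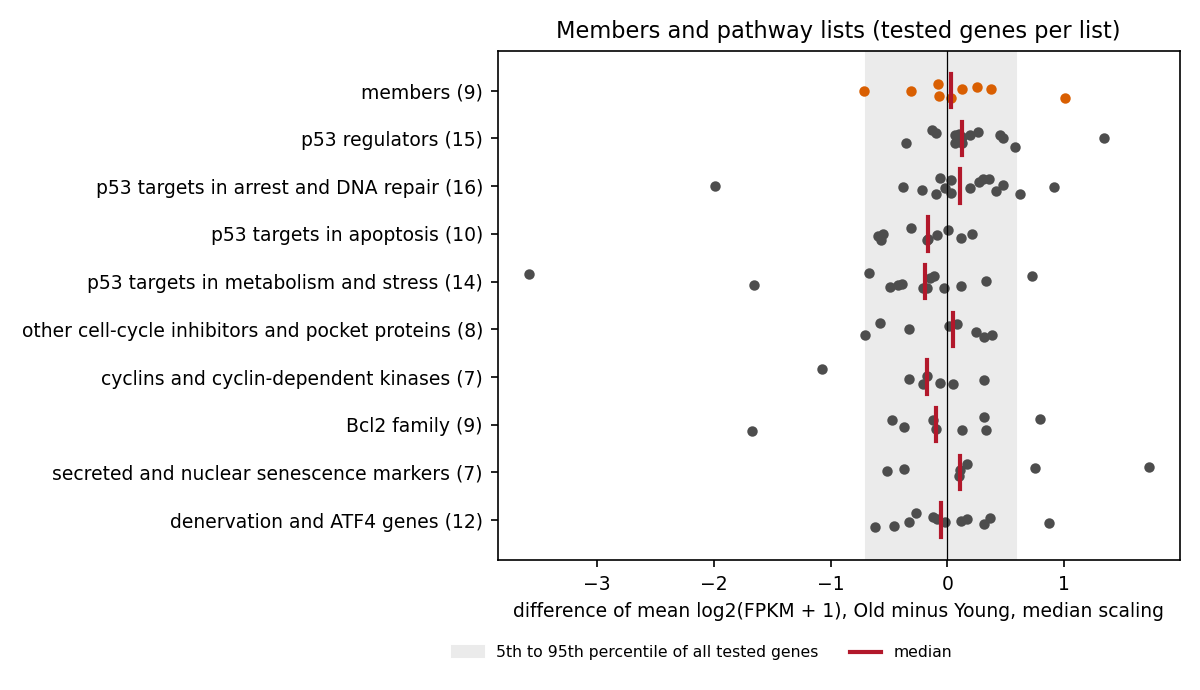
Each point is 1 tested gene, placed by its difference of mean log2(FPKM + 1), Old minus Young, after median scaling, with the members in orange and each list in a row of its own (number of tested genes in parentheses); red bars are medians and the grey band is the 5th to 95th percentile of all tested genes. The medians of the members and of all 9 lists lie within 0.2 of 0, Cdkn1a and Cdkn2c lie outside the band, and Ddit4 is the gene farthest to the left.

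Markers of other cells in the muscle differed between the ages alongside Cdkn1a, Bax and Cdkn2c. Fewer cells of a type and less RNA per cell cannot be told apart in whole muscle. Of 8 fibroblast markers, 8 were tested and 6 were lower in both crossed pairs, with a summed level after median scaling of 149 and 193 in Old and 318 and 251 in Young. For macrophage and leukocyte markers 7 of 8 tested were lower in both pairs (20.0 and 18.4 in Old, 30.5 and 31.4 in Young), for endothelial markers 4 of 6 (52.7 and 67.8 in Old, 95.1 and 74.1 in Young), and for Schwann cell markers 3 of 3 (27.0 and 33.0 in Old, 50.3 and 40.8 in Young). Satellite cell markers were higher in both pairs for 2 of 3 tested genes (10.7 and 11.7 in Old, 13.9 and 12.9 in Young), and adipocyte markers for 3 of 5 (280 and 266 in Old, 290 and 318 in Young). In each of these lists a single gene, lower in Old in both pairs, made up most of the sum. Over all tested genes 42.3% were higher and 45.2% lower in both pairs. Slow fiber markers were higher in both pairs for 6 of 6 tested genes (805 and 733 in Old, 56.7 and 56.5 in Young), and limma called 5 of them higher as deposited. All 12 fiber markers had a value and 11 were tested, of which 5 were higher and 5 lower in both pairs and limma called 2 lower as deposited (Ttn and Tnnt3). Their summed scaled level was 59134 and 23262 in Old and 31992 and 49546 in Young. Ckm was listed at 0 in all 4 samples and Ttn and Tnnt3 in both old samples, and no other marker with a value was at 0 in all 4. The part of these differences in the values of Cdkn1a, Bax and Cdkn2c was not tested.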

How the data were processed

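mRNA from TA muscles of C57BL/6 mice, 2 samples per age, was sequenced from TruSeq Stranded libraries. Per the study's methods, reads were trimmed and cleared of duplicates, mapped to mm10 by TopHat2 (version 2.0.10) with RefSeq as a guide, and summarised by Cufflinks in each sample; the authors deposited these FPKM values. The submitters' processing notes also name Cuffdiff (version 2.1.1). Read depth is unknown, so no counting error is given.

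Samples were grouped by the age in their labels. The 1 incomplete last line of each table was dropped, rows with one symbol were summed, and a gene needed a value in each of the 4 samples. Locus starts are given 1-based. The tables end on chromosome 7 or 8 in the order of the files, so genes listed after that point were not analysed here. Values were compared as log2(FPKM + 1) with limma 3.58.1 (R 4.3.3, moderated test with a mean trend, no block, adjusted by Benjamini-Hochberg, threshold 0.05). The fit was tried on simulated data, with a pass limit set only for samples on a common scale, unlike the samples here. Same-numbered samples deviated from their age means in opposite directions (correlation -0.885 over genes). With 2 samples per age, the crossed pairing gives 0.885 by construction. The sign shows which samples were on the higher scale and not whether equal numbers shared a batch. Members and lists were chosen with earlier results of these data known. Every member is named. Of each pathway list at most 3 genes are named, those with the largest median-scaled log2 fold change among genes whose groups did not overlap; Il6, Cxcl1, Tnf, Il1b, Cdk4, Cdk6 and Ccne2 were named after their values were seen. Of marker lists, counts and markers at 0 are given. Some listed genes without a value are named besides. Promoter windows came from RefSeq (GRCm38.p6). Tables and plots used matplotlib 3.10.9, scipy 1.17.1, numpy 2.4.6 and pandas 2.3.3 under Python 3.11.15.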

Additional observations from a re-analysis of the deposited data

How the results depend on the processing

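The log2 fold changes of Cdkn1a and Cdkn2c kept their sign under each alternative run, and no member passed the threshold in the fits of values as deposited without crossed pairs. With a replicate block (the labels' numbers), limma called 2 genes higher and 3 lower over all genes tested, and with median scaling and that block 67 and 93. The labels do not say whether equal numbers pair the samples. With the crossed pairs as a block, an alternative chosen after seeing the data, 2812 genes were called higher and 3374 lower, among them 4 and 3 members. Without a filter on low values limma called 0 genes higher and 0 lower (23 and 29 at an unadjusted p under 0.05), and requiring 1 FPKM in each of the 4 samples it called 4 and 2. Quantile normalization gave 119 and 188. Median-ratio scaling gave 61 and 75, and log2 values shifted to one median 75 and 129, both chosen after seeing the data. The cause of these shifts was not tested.

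Leaving out a sample leaves 1 sample at one age, which is assumed to vary like the others. As deposited, the leave-outs gave 2 to 6 genes higher and 3 to 10 lower, and the members' median log2 fold change ran from -0.47 to 0.50. The log2 fold change of Cdkn1a ran from -1.22 (without Young 1; -1.18 without Old 1) to -0.20 (without Young 2; -0.24 without Old 2), and that of Cdkn2c from 0.36 (without Old 1; 0.39 without Young 1) to 1.61 (without Old 2; 1.57 without Young 2). The range was -0.42 to 0.50 for Cdkn1b, -0.57 to 0.42 for Cdkn2b, -0.26 to 0.76 for Trp53, -0.0675 to 0.82 for Mdm2, -0.61 to 0.46 for Gadd45a, -0.47 to 0.73 for Ccng1 and -0.86 to 0.24 for Bax. Mdm2, Trp53, Cdkn1b and Ccng1 turned lower without Old 1 or Young 1, and Cdkn2b, Gadd45a and Bax turned higher without Old 2 or Young 2. The members' median shifted likewise, to -0.47 without Old 1, -0.44 without Young 1, and 0.50 without Old 2 or without Young 2. With a sample left out, the ages are no longer on like scales as deposited. The part of this in the sign changes was not tested.

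Median scaling with each sample left out was chosen after seeing the data. It gave 187 genes higher and 499 lower without Old 1, 394 and 134 without Old 2, 114 and 510 without Young 1, and 375 and 230 without Young 2, with 1 member (Cdkn2c) higher in each but the fit without Young 1, which had 0. On this scale the log2 fold changes of Gadd45a, Cdkn1b and Cdkn2b, near 0 with all 4 samples, changed sign in some fits. Gadd45a was at 0.0198 without Old 1 and 0.00366 without Young 1. Cdkn1b was at -0.13 without Old 2 and -0.12 without Young 2, and Cdkn2b at 0.14 in both. The unknown read depth limits the genes near 1 FPKM, Cdkn2b and Cdkn2a most.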
